A study of Homo sapiens with 6 samples.

Results

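The levels of 10 genes for DNA-binding factors tied to the silencing of gamma-globin were followed in HUDEP-2 cells after depletion of menin: BCL11A, ZBTB7A, MYB, NFIA, NFIX, SOX6, HIC2, NR2C1, NR2C2 and NR2F2. They were taken by gene name, with the KLF and GATA families left out, and all 10 were found among the 62754 genes of each table. HUDEP-2 cells are immortalised erythroid precursors of human origin whose hemoglobin is mostly of the adult type. Cells received a lentiviral shRNA against MEN1 (the hairpin MEN1sh2, genotype given as MEN1 knockdown, n = 3) or a control shRNA with no target (genotype given as WT, n = 3). The medium of both groups held dexamethasone, doxycycline (1 µg per ml), erythropoietin (3 units per ml) and SCF, the ligand of KIT (50 ng per ml). Both were selected with puromycin at 2 µg per ml from 24 h for 48 h and were harvested at 72 h. A single MEN1 hairpin in a single cell line was used, so loss of menin and any other effect of that hairpin cannot be told apart. The labels call the libraries biological replicates without saying what was repeated, and the p-values measure only the spread between these libraries.

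Fetal hemoglobin carries gamma-globin chains, encoded by HBG1 and HBG2, and adult red cell precursors keep these genes nearly silent. BCL11A and ZBTB7A are zinc finger proteins that bind separate elements of the gamma-globin promoters and recruit the NuRD corepressor complex there. SOX6 binds DNA next to BCL11A and acts with it, MYB is a progenitor factor whose loss raises fetal hemoglobin, and NFIA and NFIX are nuclear factor I proteins that promote the adult globin program. NR2C1 (TR2) and NR2C2 (TR4) are orphan nuclear receptors of a repressor complex that binds direct repeats in the embryonic and fetal globin promoters, and NR2F2 (COUP-TFII) recognises the same kind of repeat. HIC2 differs from the rest in its known role: it represses BCL11A itself, and is high in fetal erythroid cells.

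Sequences upstream of the 3 genes that changed most are shown for orientation, as RefSeq gives them on GRCh38.p14. All 10 genes had at least 1 RefSeq window, 26 in all, and the 250 bases before each annotated start were searched on both strands for 5 motifs. The gene tables do not say which start these cells use. MYB is shown from its start at the gene's annotated 5′ end, chr6:135181058-135181307 on the plus strand, with an E2F-type motif, TTTGGCGG, in capitals. BCL11A is shown from an internal start, chr2:60528536-60528785 on the minus strand, with the core recognised by BCL11A protein, TGACCA, in capitals as its reverse complement. SOX6 is shown from an internal start, chr11:16402864-16403113 on the minus strand, with the SOX core ACAAT in capitals.
MYB: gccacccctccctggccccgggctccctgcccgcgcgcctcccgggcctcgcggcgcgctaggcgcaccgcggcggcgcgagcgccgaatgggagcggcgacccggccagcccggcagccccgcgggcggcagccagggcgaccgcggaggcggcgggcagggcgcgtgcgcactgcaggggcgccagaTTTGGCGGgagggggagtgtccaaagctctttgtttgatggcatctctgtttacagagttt
BCL11A: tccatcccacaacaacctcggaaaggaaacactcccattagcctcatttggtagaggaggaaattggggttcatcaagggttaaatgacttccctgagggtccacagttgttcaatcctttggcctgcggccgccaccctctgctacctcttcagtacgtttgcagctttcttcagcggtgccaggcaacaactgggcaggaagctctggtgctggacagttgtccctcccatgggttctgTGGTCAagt
SOX6: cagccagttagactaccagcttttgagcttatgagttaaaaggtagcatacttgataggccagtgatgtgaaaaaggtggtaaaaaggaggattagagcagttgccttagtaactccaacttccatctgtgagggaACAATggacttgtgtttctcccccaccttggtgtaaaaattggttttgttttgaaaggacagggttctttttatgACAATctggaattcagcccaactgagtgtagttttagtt

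The E2F-type motif of MYB begins 61 bases before the start. It was found in 1 of the 26 windows of these genes, that of MYB, and in 0.538% of all 35116 windows searched. TGACCA was found in 1 of the 26 windows of these genes, the BCL11A window above, and in 9.19% of all windows. ACAAT was found in 6 of the 26, against 24.6% of all windows, and 5 of these 6 belong to SOX6. The GATA motif AGATAA was in 0 of the 26 windows and in 9.17% of all windows. The KLF core CACCC was in 13 of the 26 and in 54.7% of all. None of these motifs holds another, and a match marks letters only, not a bound site.

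The erythroid identity of the cells was checked against marker genes. MEN1 had 6.54 ± 0.303 TPM (the abundance of a gene's transcripts as a share of all transcripts in the library) with the MEN1 shRNA and 39.3 ± 2.10 in controls (SD, n = 3 each). The 12 terminal erythroid markers summed to 3059 to 3203 TPM in controls and 6664 to 7071 TPM with the MEN1 shRNA, and the 9 progenitor markers to 634 to 674 and 293 to 328 TPM. Of the megakaryocyte markers PF4 and PPBP were listed at 0 in every library, and 7 of 8 stayed below 1 TPM, with ITGA2B as the exception. Among myeloid and mast cell markers MPO reached at most 0.12 TPM, whereas the tryptase genes TPSAB1 and TPSB2 were abundant in every library, at 303 TPM or more. The mast cell markers CPA3 and HDC reached at most 0.835 and 0.210 TPM. COL1A1 and COL1A2 were at 2.24 and 2.02 TPM in control replicate 2 and at most 0.188 TPM in any other library. Aligned sequence came to 5.56 to 10.8 gigabases per library, inferred from the ratio of deposited coverage to FPKM. The most frequent ratio among genes at 1 TPM or more was assumed to be that of single-transcript genes.

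The MEN1 shRNA was accompanied by changes in both directions among the 10 factors. BCL11A, MYB and NFIX fell, and SOX6, NR2C2 and ZBTB7A rose. NFIA, HIC2 and NR2C1 did not pass the threshold, and NR2F2 was too low to test. BCL11A, MYB and SOX6 were the only 3 past the threshold with a change of at least 2-fold. In limma on log2(TPM + 1), 6 of the 9 factors tested had a Benjamini-Hochberg adjusted p below 0.05, 3 higher and 3 lower. Over all 14294 genes tested 53.6% passed, 22.1% higher and 31.5% lower, so a count of 6 in 9 is not far from the background. The split moved with the scaling: 41.2% of all calls were higher in TPM and 49.5% with median-of-ratios scaling, under which 4 factors passed as higher and 2 as lower. The 2-fold change was met by 3 of the 9 factors and by 11.9% of all genes. The median log2 fold change of the 9 was 0.06, against -0.07 over all genes tested. Groups did not overlap in 7 of the 9, against 61.8% of all genes tested, and each of the 7 had an exact permutation p of 0.1, below which a design of 3 against 3 libraries cannot go.

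**Figure D1:**
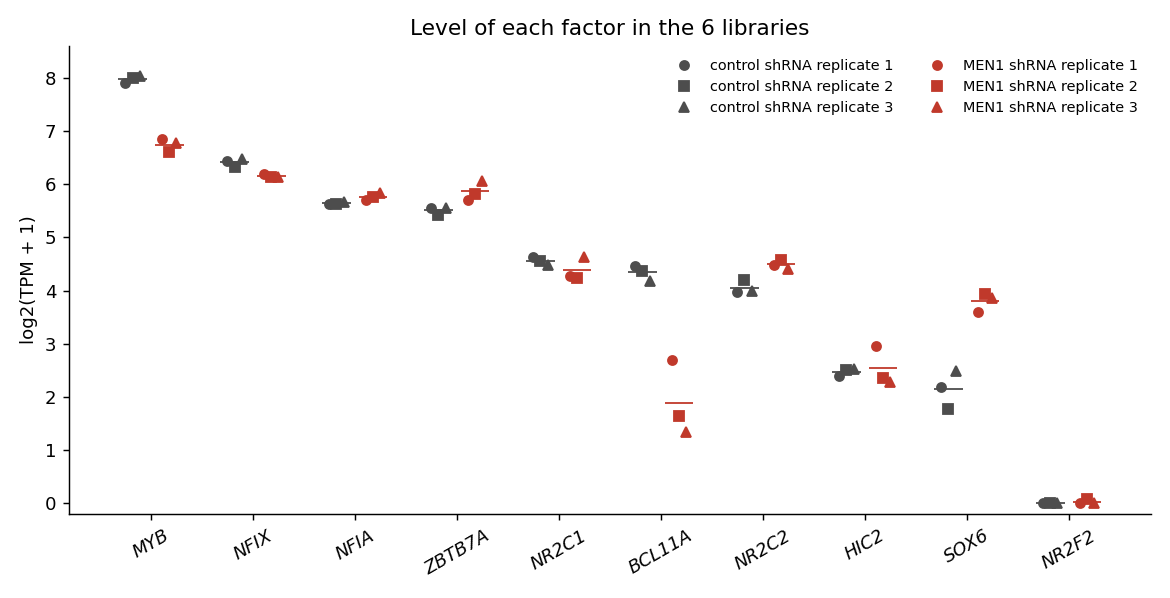
Level of the 10 factors as log2(TPM + 1), ordered by control mean, with 1 point per library (grey, control shRNA; red, MEN1 shRNA; circle, square and triangle, replicates 1, 2 and 3) and the group mean as a line. BCL11A and MYB lie lower and SOX6 higher in every MEN1 shRNA library, and NR2F2 lies at or near 0 throughout.

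BCL11A (ENSG00000119866, chromosome 2, 60450520 to 60554467) showed the deepest fall. It stood at 21.1, 19.8 and 17.2 TPM in control replicates 1, 2 and 3. With the MEN1 shRNA it stood at 5.45, 2.13 and 1.52 TPM. All 3 knockdown libraries lay well under every control, and replicate 1 kept the highest level of the 3. Mean TPM was 3.04 ± 2.12 against 19.4 ± 1.97 in controls (SD, n = 3), so BCL11A was at 15.7% of its control level. Its log2 fold change came to -2.45 (SE 0.317, 95% interval -3.19 to -1.72, adjusted p 0.000486 in limma), an absolute change larger than that of 99.4% of genes tested. In control cells BCL11A ranked sixth of the 10 by level, and with the MEN1 shRNA its range overlapped that of HIC2 near the bottom. Leaving out MEN1 shRNA replicate 1 gave -2.85 and leaving out replicate 3 gave -2.18. The deposited mean coverage was 0.196 to 1.01 with the MEN1 shRNA and 2.51 to 4.71 in controls. The length over which coverage of a gene with several isoforms was averaged is not given in the sources used here, so it does not measure read support and cannot be compared between genes.

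ZBTB7A, also called LRF (ENSG00000178951, chromosome 19, 4043303 to 4066899), is the other zinc finger silencer that acts directly at the gamma-globin promoters. Control replicates 1, 2 and 3 had 46.2, 41.7 and 45.9 TPM. MEN1 shRNA replicates 1, 2 and 3 had 51.4, 55.4 and 65.8 TPM. The groups did not overlap, though the lowest knockdown library lay close to the highest control. ZBTB7A rose by a log2 fold change of 0.36 (SE 0.0988, 95% interval 0.13 to 0.59, adjusted p 0.0178 in limma). The call was lost when low genes were kept in (adjusted p 0.0598) and when control replicate 2 was left out (0.0616), within a range of 0.00719 to 1 across alternatives.

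BCL11A and ZBTB7A were therefore also compared as a ratio within each library. The ratio of BCL11A to ZBTB7A was 0.457, 0.475 and 0.376 in control replicates 1, 2 and 3. It was 0.106, 0.0384 and 0.0232 in the MEN1 shRNA replicates. The log2 ratio was lower by 3.25 on average with the MEN1 shRNA (-4.46 ± 1.12 against -1.20 ± 0.181, SD, n = 3). The 2-sided exact permutation p was 0.1, and 0.1 after adjustment over the 3 ratios compared.

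SOX6 (ENSG00000110693, chromosome 11, 15966449 to 16739591), the partner of BCL11A in gamma-globin repression, moved the other way. Control replicates 1, 2 and 3 had 3.56, 2.42 and 4.64 TPM. MEN1 shRNA replicates 1, 2 and 3 had 11.1, 14.3 and 13.6 TPM. Every knockdown library was more than double the highest control. Mean TPM was 13.0 ± 1.68 with the MEN1 shRNA and 3.54 ± 1.11 in controls (SD, n = 3), a ratio of 3.68. The log2 fold change was 1.65 (SE 0.192, 95% interval 1.20 to 2.10, adjusted p 0.000305 in limma), larger in absolute size than that of 97.1% of genes tested. Across the alternatives it ranged from 1.45 to 1.89 and the call held in each. In controls SOX6 had the lowest mean of the 9 factors tested, with a range that overlapped that of HIC2. With the MEN1 shRNA it stood above both HIC2 and BCL11A with no overlap of ranges. The gene overlaps C11orf58 on the opposite strand, at 94.0 ± 2.88 TPM with the MEN1 shRNA and 98.4 ± 1.19 TPM in controls (log2 fold change -0.07, adjusted p 0.332 in limma, not past the threshold).

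MYB (ENSG00000118513, chromosome 6, 135181308 to 135219173), a driver of progenitor proliferation, was the most abundant of the 10 in both groups. It was at 237, 253 and 260 TPM in control replicates 1, 2 and 3. It was at 114, 96.4 and 108 TPM in the MEN1 shRNA replicates. The groups were far apart and the replicates tight. MYB fell to 42.4% of its control level, by a log2 fold change of -1.23 (SE 0.0751 and adjusted p 3.0e-05 in limma). Deposited mean coverage of MYB was 133 to 179 with the MEN1 shRNA and 412 to 620 in controls. MYB made up 48.9% to 51.8% of the summed TPM of the 10 factors in control libraries and 28.8% to 32.4% with the MEN1 shRNA. Without MYB, the other factors summed to 244 ± 9.13 TPM with the MEN1 shRNA and 244 ± 6.85 TPM in controls (exact permutation p 1).

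HIC2 (ENSG00000169635, chromosome 22, 21417371 to 21451463), the factor that represses BCL11A, showed no shift of the group as a whole. Its TPM was 4.28, 4.71 and 4.74 in control replicates 1, 2 and 3 and 6.79, 4.13 and 3.90 in the MEN1 shRNA replicates. Knockdown replicate 1 lay above every control and replicates 2 and 3 below every control. The log2 fold change was 0.06 (95% interval -0.38 to 0.50, adjusted p 0.815 in limma), and it turned to -0.15 without MEN1 shRNA replicate 1. The interval allows a fold change from 0.770 to 1.41, so a modest shift in either direction was not detectable here.

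**Figure D2:**
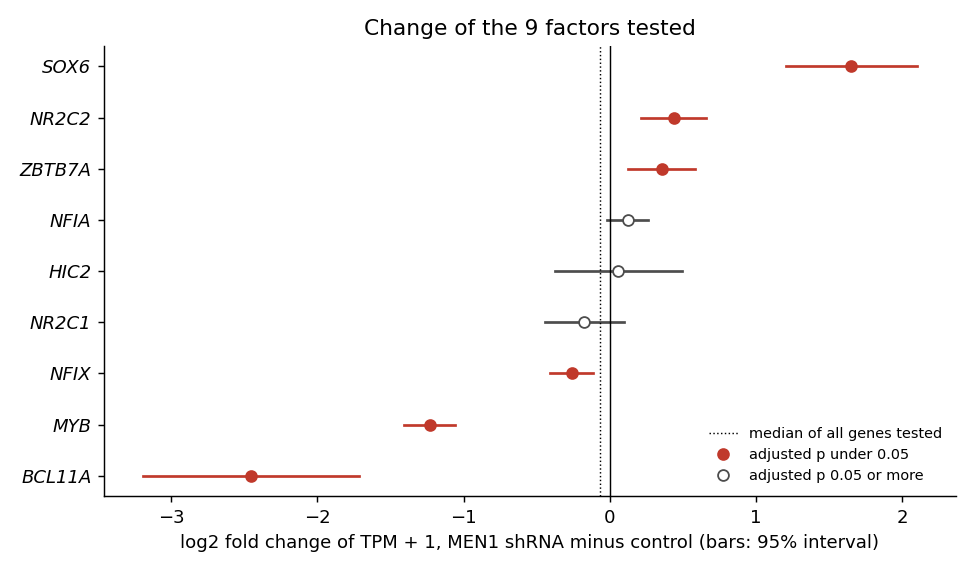
Log2 fold change of TPM + 1 for the 9 factors tested, MEN1 shRNA minus control, with 95% intervals from limma (filled red, adjusted p below 0.05; open grey, not past it; dotted line, median of all genes tested). BCL11A at -2.45 and SOX6 at 1.65 mark the ends, and the intervals of NFIA, HIC2 and NR2C1 include 0.

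Of the nuclear factor I pair, NFIX fell slightly in TPM and NFIA did not pass the threshold. NFIA (ENSG00000162599, chromosome 1, 60865259 to 61462788) had 48.7, 48.2 and 49.8 TPM in control replicates 1, 2 and 3. In MEN1 shRNA replicates 1, 2 and 3 it had 51.3, 52.9 and 55.9 TPM. The groups were adjacent without overlap, and the change of 0.12 on the log2 scale did not pass (95% interval -0.02 to 0.26, adjusted p 0.128 in limma). NFIX (ENSG00000008441, chromosome 19, 12995475 to 13098796) had 86.0, 79.2 and 88.1 TPM in the controls. In the MEN1 shRNA replicates it had 72.3, 69.0 and 69.6 TPM, a log2 fold change of -0.26 (SE 0.0626 and adjusted p 0.00956 in limma). The span of NFIX overlaps an unnamed gene on the same strand, at 1.71 ± 1.10 TPM with the MEN1 shRNA and 3.80 ± 0.954 in controls. That gene fell by -0.88 on the log2 scale (adjusted p 0.0368 in limma), and the part of reads shared with NFIX was not tested. The NFIA to NFIX ratio was 0.566, 0.609 and 0.565 in the controls and 0.709, 0.766 and 0.803 with the MEN1 shRNA (exact permutation p 0.1). The summed TPM of the pair was 124 ± 1.78 with the MEN1 shRNA and 133 ± 5.45 in controls.

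Both calls on the nuclear factor I pair turned on how values were scaled. With median-of-ratios scaling NFIA passed the threshold (log2 fold change 0.21, adjusted p 0.0198) and NFIX did not (-0.17, adjusted p 0.0691). Quantile normalization gave the same pair of changes, 0.21 for NFIA (adjusted p 0.0201) and -0.18 for NFIX (adjusted p 0.0547). Across alternatives the adjusted p of NFIA ran from 0.0198 to 1 and that of NFIX from 0.00863 to 1. Neither scaling moved the median of all genes by more than 0.083 on the log2 scale. Deposited coverage of NFIX, divided by aligned gigabases, was 3.10, 2.84 and 4.15 in control replicates 1, 2 and 3 and 4.36, 4.03 and 3.79 in the MEN1 shRNA replicates. On that measure the groups overlapped and the mean was 1.21 times higher with the MEN1 shRNA, opposite to the direction in TPM.

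Of the orphan nuclear receptors of the direct-repeat complex, NR2C2 rose and NR2C1 did not pass the threshold. NR2C2 (ENSG00000177463, chromosome 3, 14947583 to 15053600) had 14.7, 17.4 and 14.9 TPM in control replicates 1, 2 and 3. In MEN1 shRNA replicates 1, 2 and 3 it had 21.4, 23.0 and 20.3 TPM. The groups did not overlap, and NR2C2 rose by a log2 fold change of 0.44 (SE 0.0944, adjusted p 0.00579 in limma). Its span overlaps MRPS25 and FGD5-AS1 on the opposite strand, which were at 27.3 ± 3.18 against 45.9 ± 2.88 TPM and 44.9 ± 5.77 against 54.9 ± 1.43 TPM, both lower with the MEN1 shRNA. Whether the authors' quantification used strand is not given in the sources used here, and the part of reads shared with these neighbours was not tested.

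NR2C1 (ENSG00000120798, chromosome 12, 95020229 to 95073628), the other receptor of that complex, had 23.8, 22.4 and 21.4 TPM in control replicates 1, 2 and 3. The MEN1 shRNA replicates had 18.4, 17.9 and 23.8 TPM. Replicates 1 and 2 lay under every control, while replicate 3 reached the top of the control range. The log2 fold change of -0.17 did not pass (95% interval -0.44 to 0.10, adjusted p 0.246 in limma). Without MEN1 shRNA replicate 3 it was -0.30 with an adjusted p of 0.0312, within a range of 0.0312 to 1 across alternatives. The NR2C1 to NR2C2 ratio was 1.62, 1.29 and 1.44 in controls and 0.859, 0.780 and 1.17 with the MEN1 shRNA, which is a difference of -0.64 on the log2 scale (exact permutation p 0.1). Their summed level was 41.6 ± 2.21 with the MEN1 shRNA against 38.2 ± 1.81 TPM (exact permutation p 0.2).

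NR2F2 (ENSG00000185551, chromosome 15, 96325938 to 96340263) was listed at 0 in 5 libraries and at 0.0602 TPM in MEN1 shRNA replicate 2. It did not pass the filter, and nothing can be said of a change. Transcripts of the other 9 were measured in every library, and whether each factor silences globin in these cells was not tested.

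Levels in TPM gave the factors an order in which MYB and NFIX led in both groups and the ranks below them changed. In controls MYB led, followed by NFIX, NFIA, ZBTB7A, NR2C1, BCL11A, NR2C2, HIC2 and SOX6. The ranges of BCL11A and NR2C2, and those of HIC2 and SOX6, overlapped between neighbours in that order. With the MEN1 shRNA the order was MYB, NFIX, ZBTB7A, NFIA, NR2C2, NR2C1, SOX6, HIC2 and BCL11A. There the overlapping neighbours were ZBTB7A and NFIA, NR2C2 and NR2C1, and HIC2 and BCL11A.

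The factors were compared by a second deposited measure because TPM of a gene with many isoforms depends on how reads are divided among them. The ratio of coverage to FPKM was set to 1 at its most frequent value in each library, assumed to be that of single-transcript genes. It averaged 0.711 for ZBTB7A and 0.501 for MYB in controls, but 0.0486 for BCL11A, 0.0429 for NR2C2, 0.0321 for NFIA and 0.0256 for SOX6. For NFIX this ratio averaged 0.0869 in controls and 0.124 with the MEN1 shRNA. Coverage per aligned gigabase gave ratios of group means of 0.185 for BCL11A, 0.405 for MYB, 4.82 for SOX6, 1.67 for NR2C2 and 1.38 for ZBTB7A. These 5 kept the direction seen in TPM, and NFIX did not.

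**Figure D3:**
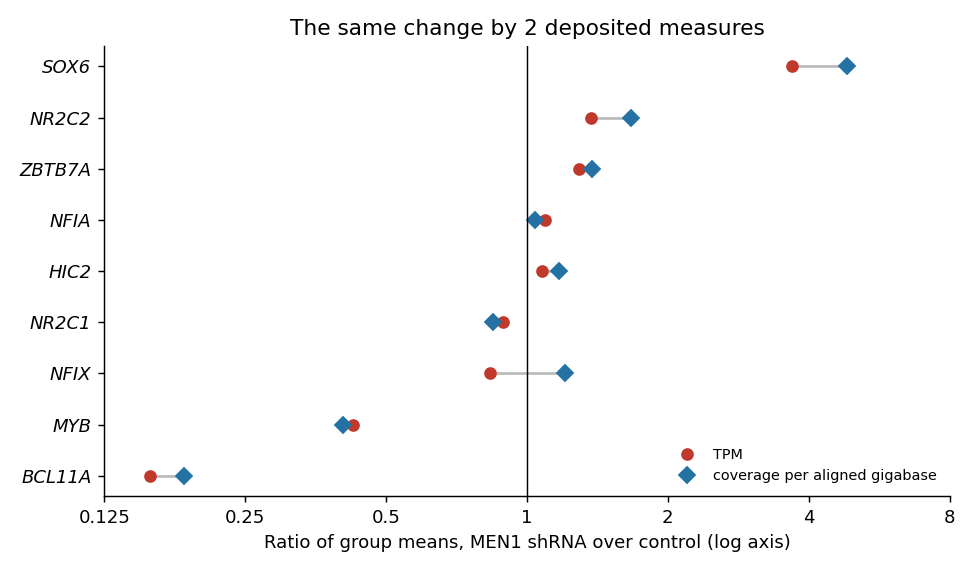
Ratio of group means, MEN1 shRNA over control, on a log axis, from TPM (red circles) and from deposited coverage per aligned gigabase (blue diamonds) for the 9 factors tested. NFIX crosses 1 between the measures, from 0.833 in TPM to 1.21 in coverage, and the other 8 stay on the same side.

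Family paralogs of the factors were examined as the nearest relatives in sequence. Of 12 paralogs, 5 passed the filter, 1 fell and 4 did not pass the threshold, with a median log2 fold change of 0.02. The share past the threshold was 20.0%, against 53.6% of all genes tested. MYBL2, the cell-cycle relative of MYB, stood at 211 ± 16.8 TPM against 254 ± 9.46 in controls, a fall with a log2 fold change of -0.26 (adjusted p 0.0146 in limma) beside the -1.23 of MYB. Its call was lost with median-of-ratios scaling (adjusted p 0.0902) and without MEN1 shRNA replicate 2 (0.0509), within a range of 0.00345 to 1. NFIC (68.1 ± 3.14 against 66.2 ± 4.16 TPM), ZBTB7B (37.8 ± 1.48 against 37.1 ± 0.539), NR2F6 (19.8 ± 1.46 against 21.2 ± 3.18) and HIC1 (1.41 ± 0.878 against 0.982 ± 0.588) had adjusted p-values of 0.515 to 0.768. The remaining 7, BCL11B, ZBTB7C, MYBL1, NFIB, SOX5, SOX13 and NR2F1, stayed below 1 TPM in every library. BCL11B, the relative of BCL11A, was at 0.0129 ± 0.0144 TPM with the MEN1 shRNA and 0.0326 ± 0.0128 TPM in controls.

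Corepressors that the factors are known to recruit were abundant throughout. All 20 on the list were tested, and 3 rose, 8 fell and 9 did not pass, a share of 55.0% past the threshold against 53.6% of all genes. The median log2 fold change was -0.12. RCOR1, a CoREST subunit, stood at 20.4 ± 0.474 TPM against 32.7 ± 0.276 in controls, a fall of -0.66 on the log2 scale (adjusted p 0.000138 in limma). The NuRD subunits MTA1 (log2 fold change -0.56) and RBBP7 (-0.79) fell, with adjusted p-values of 0.000429 and 0.000966. HDAC1, a deacetylase of the same complex, rose to 185 ± 16.8 TPM against 132 ± 8.41 in controls, by 0.48 on the log2 scale (adjusted p 0.00179).

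Genes known to act on the factors showed no common direction either. Of 17 listed, 15 were tested, and 4 rose, 5 fell and 6 did not pass (60.0% past the threshold, against 53.6% of all genes), with a median of -0.13. EIF2AK1, the heme-regulated kinase HRI that sustains BCL11A, rose to 312 ± 12.3 TPM against 181 ± 3.97 in controls, by 0.78 on the log2 scale (adjusted p 3.9e-05 in limma). TAL1, an erythroid activator, rose with a log2 fold change of 0.74, RUNX1 fell with -1.50, and the RNA-binding protein gene IGF2BP2 fell with -2.25 (adjusted p-values 0.000115, 5.2e-05 and 1.7e-05). KLF1, a direct activator of both BCL11A and ZBTB7A, was named outside the naming rule and had 533 ± 9.76 against 553 ± 36.2 TPM (adjusted p 0.508). LIN28A and LIN28B, which favour the fetal program, stayed below 1 TPM in every library.

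**Figure D4:**
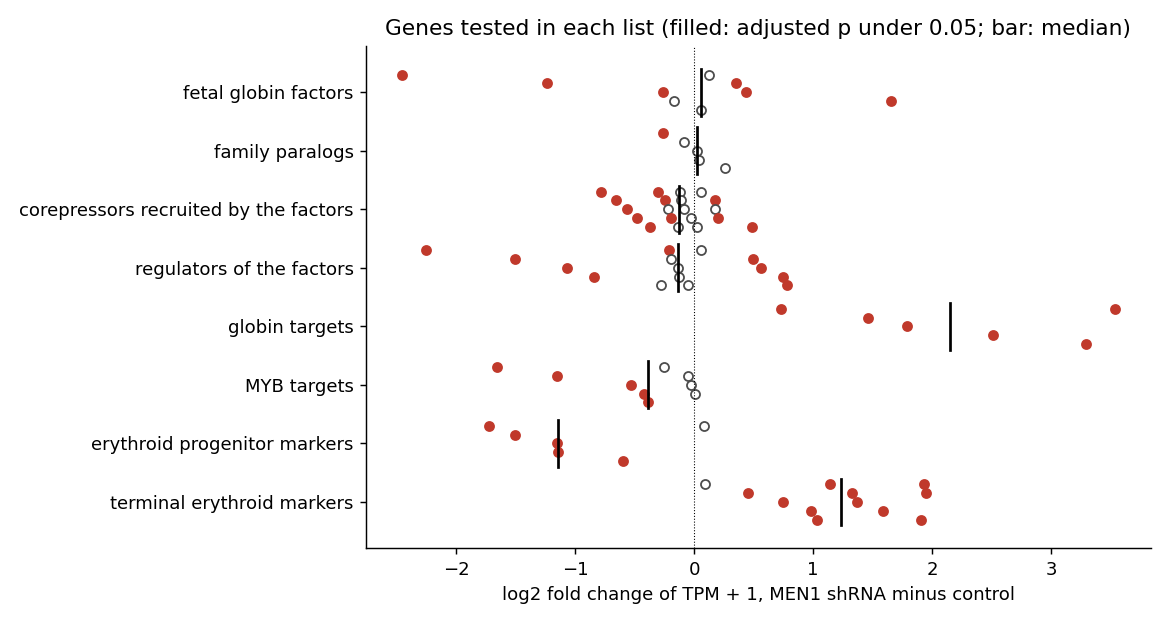
Log2 fold change of TPM + 1 for each tested gene of 8 lists, MEN1 shRNA minus control, with filled red points past an adjusted p of 0.05, open points not past it and a black bar at the list median. The globin targets (median 2.15) and terminal erythroid markers (1.23) lie to the right, the progenitor markers (-1.15) to the left, and the fetal globin factors spread to both sides of 0.

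Genes listed as known targets of MYB fell or did not pass. Of 12 listed, 9 were tested, and 0 rose, 5 fell and 4 did not pass, with a median of -0.39. The share past the threshold was 55.6%, near the 53.6% of all genes. KIT, the stem cell factor receptor, fell from 271 ± 18.6 to 122 ± 3.47 TPM (log2 fold change -1.15). MYC fell from 232 ± 6.52 to 74.1 ± 15.4 TPM (-1.65). The cyclin genes CCNE1 (-0.53) and CCND1 (-0.39) fell by less, and the adjusted p-values of these 4 in limma were 2.6e-05, 6.4e-05, 0.00237 and 0.00546.

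All 6 globin targets rose, against 22.1% of all genes tested, with a median log2 fold change of 2.15. They were the fetal genes HBG1 (2.51) and HBG2 (1.79), the embryonic genes HBE1 (3.29) and HBZ (3.53), and the adult genes HBD (1.46) and HBB (0.73). HBE1 stayed below 1 TPM in every control and passed the filter through the MEN1 shRNA libraries alone, so it could be tested only as higher. HBG1 and HBG2 are near-identical, so their sum is used here. The annotated span of HBG2 (chromosome 11, 5253188 to 5505605) overlaps that of HBE1 (5268345 to 5505652) on the same strand. The part of reads shared between them was not tested. The sum was 188, 180 and 178 TPM in control replicates 1, 2 and 3 and 927, 670 and 708 TPM in the MEN1 shRNA replicates. Within the knockdown group replicate 1 had both the highest sum and the highest BCL11A level, 5.45 TPM. That sum stood out through HBG2 (631 TPM against 351 and 403 in replicates 2 and 3), while HBG1 was lowest in replicate 1 (297 TPM against 319 and 305). The library also had the lowest SOX6 (11.1 TPM) and the lowest ZBTB7A (51.4 TPM) of its group. No correlation is given, since the libraries fall into 2 separate clusters of 3. The call of HBB was lost when low genes were kept in (adjusted p 0.0917), and against a minimum change of 0.5 on the log2 scale (0.127), within a range of 0.000219 to 1. The upper end comes from quantile normalization, which sets a gene at the top of every library to the same value and so cannot test HBB.

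**Figure D5:**
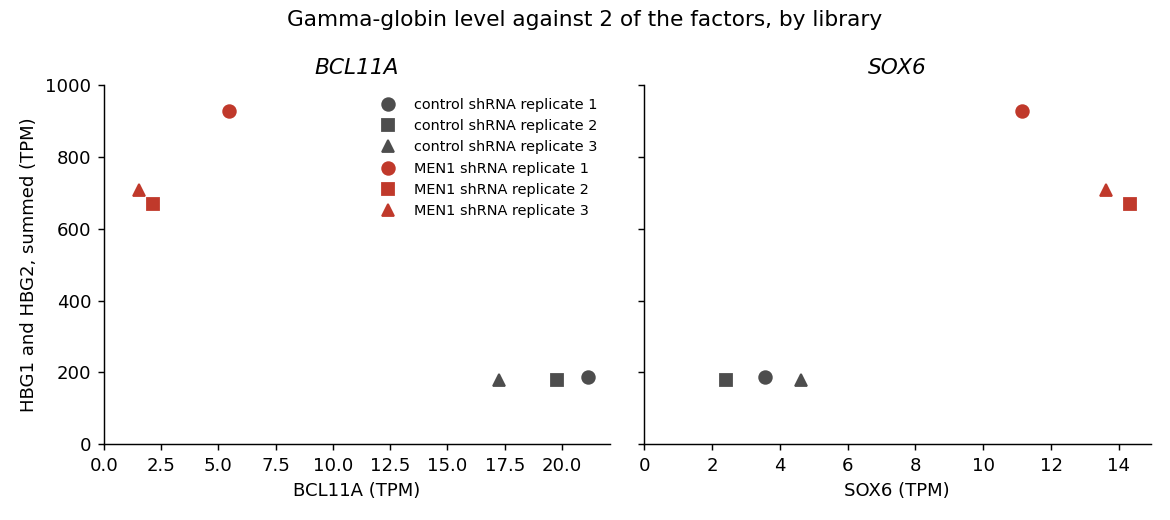
Summed HBG1 and HBG2 against BCL11A (left) and SOX6 (right), all in TPM, with 1 point per library (grey, control; red, MEN1 shRNA; shapes, replicate numbers). Control libraries sit at 178 to 188 TPM of gamma-globin with high BCL11A and low SOX6, and the MEN1 shRNA libraries at 670 to 927 TPM with the reverse.

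Markers of erythroid stage moved with the same contrast. Of 9 progenitor markers, 6 were tested, and 0 rose, 5 fell and 1 did not pass, with a median of -1.15. The share past the threshold was 83.3%, against 53.6% of all genes tested. CSF2RB (log2 fold change -1.72), KIT (-1.15), RUNX1 (-1.50) and HHEX (-0.60) led by adjusted p. KIT was also counted among the MYB targets and RUNX1 among the genes that act on the factors. Of 12 terminal erythroid markers, 11 rose (91.7%, against 22.1% of all genes tested) and 1 did not pass, with a median of 1.23. They were led by SLC4A1 (1.93), HEMGN (1.91), GYPB (1.95) and DMTN (1.37). The largest of these 8 adjusted p-values in limma was 0.000257. MYB is itself highest in progenitors, as background. Markers of other cell types were lower with the MEN1 shRNA. Those of megakaryocytes summed to 17.1 to 21.9 TPM against 32.0 to 36.8 in controls, nearly all from ITGA2B (log2 fold change -0.83). Myeloid and mast cell markers summed to 725 to 885 against 1040 to 1308 TPM, with 4 of 9 tested and all 4 lower: AZU1 (-1.51), LYZ (-1.05), TPSB2 (-0.59) and TPSAB1 (-0.52). AZU1 and LYZ reached 1 TPM in controls only and passed the filter through them, so they could be tested only as lower. Stromal and endothelial markers summed to 147 to 189 against 260 to 365 TPM, nearly all from VIM (173 ± 22.7 against 302 ± 52.1 TPM). VIM alone was tested (-0.79), and CDH5 was listed at 0 in every library. The part of these markers, and of a shift in stage, in the values of the 10 factors was not tested. In bulk RNA fewer cells of a type and less RNA per cell cannot be told apart.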

How the data were processed

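Per the labels' protocols, 6 HUDEP-2 libraries were made from poly(A)-selected RNA with a directional kit; whether quantification used strand, and which annotation, is not given in the sources used here. The submitters' processing notes name FastQC, Trimmomatic, STAR 2.7.1a, Picard 2.20.4, StringTie 2.0.4 and the build hg38, with no roles. Each deposited table gives the authors' TPM, FPKM and coverage per gene, per the file headers. The deposited TPM has the same sum in every library, the deposited FPKM is scaled by length and fragments, and the deposited coverage is not scaled for depth. In control replicate 2, 2 genes with a residue just below 0 were set to 0. No read counts were used. Positions of the 10 genes overlap those of GENCODE release 29 (GRCh38), and 2 have the same start and end.

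A gene was kept if 3 libraries or more reached 1 TPM, which left 14294. Limma 3.58.1 in R 4.3.3 (trend, 2-sided, Benjamini-Hochberg over all genes, threshold 0.05) compared the groups on log2(TPM + 1), which understates changes of low genes. The fit was also run on simulated data in which few genes were changed, unlike here, so that run does not test these calls. Ratios and sums used exact permutation tests in Python 3.11.15 with SciPy 1.17.1. The genes, lists, motifs and tests were chosen with earlier results of these data known. Named are all 10 factors, MEN1, the paralogs, the globin targets and up to 4 genes with the lowest adjusted p past the threshold per list; others are said to be outside this rule. Printed windows are the first listed with the motif, with no GENCODE exon and with no AG directly before the start. Alternatives tried are under the closing section.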

Additional observations from a re-analysis of the deposited data

How the results depend on the processing

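The setting on coverage was chosen after seeing the data. Of 275 comparisons of the factors, ratios and counts with an alternative, 256 were rated unchanged. For a fold change this means the same sign and call, and for a count a change of 1.5 times or less. For a ratio it means the same sign only. The cause of the rest was not tested except where the construction shows it. BCL11A, MYB and SOX6 kept sign and call under every alternative. A limma test against a minimum change of 0.5 (treat), stricter by construction, left 3 factors (1 higher), 2126 genes and 26 listed genes past the threshold, against 6, 7657 and 52, and lost ZBTB7A (0.36), NR2C2 (0.44) and NFIX (-0.26). ZBTB7A was also lost with no filter and at an adjusted p of 0.01 (0.36 each). NFIX was lost with median-of-ratios (-0.17) and quantile (-0.18) scaling and turned to 0.23 with coverage. NFIA passed with these scalings (0.21 each) and with globin and mitochondrial genes removed from TPM (0.19), and NR2C1 passed with coverage (-0.30). Of 36 other genes, those that changed sign had not passed the threshold: ZBTB7B was -0.045 with coverage, NR2F6 0.054 with quantile normalization.

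With each library left out in turn, 5 to 7 factors passed (2 to 3 higher, 3 to 4 lower), 6577 to 7542 genes and 45 to 52 listed genes. Log2 fold changes ran from -2.85 to -2.18 for BCL11A, -1.28 to -1.17 for MYB, 1.46 to 1.82 for SOX6, 0.26 to 0.43 for ZBTB7A, -0.31 to -0.23 for NFIX, 0.39 to 0.51 for NR2C2, 0.089 to 0.15 for NFIA, -0.15 to 0.18 for HIC2, -0.30 to -0.10 for NR2C1, -0.012 to 0.50 for HIC1 and -0.17 to 0.026 for NR2F6. The log2 ratios ran from 0.35 to 0.44 for NFIA to NFIX, -0.82 to -0.52 for NR2C1 to NR2C2 and -3.86 to -2.77 for BCL11A to ZBTB7A.

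Libraries of the same replicate number did not deviate together (correlations 0.0171, -0.0266 and -0.0124 for numbers 1, 2 and 3), and 1 of 3 MEN1 shRNA libraries correlated best with the control of its own number. With the replicate number as a block the same 6 of 9 factors passed, and 7012 genes. Read counts per gene were not used, so the depth behind each factor's TPM is unknown; low levels of BCL11A with the MEN1 shRNA and of SOX6 in controls make their fold changes depend on the pseudocount (-2.84 and 1.89 with a pseudocount of 0.1).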

Other observations

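MEN1 shRNA replicate 1 took the end of its group nearest to the controls for BCL11A (5.45 against 2.13 and 1.52 TPM), SOX6 (11.1 against 14.3 and 13.6), ZBTB7A (51.4 against 55.4 and 65.8), NFIA (51.3 against 52.9 and 55.9), MYB (114 against 96.4 and 108) and NFIX (72.3 against 69.0 and 69.6), 6 of the 9 factors tested. For NR2C2 replicate 3 was nearest (20.3 TPM), for NR2C1 replicate 3 lay inside the control range (23.8 TPM), and for HIC2 replicate 1 was the farthest (6.79 TPM). MEN1 itself was lowest in replicate 1 (6.29 TPM against 6.44 and 6.88). HBG1 in replicate 1 was also the nearest to the controls (297 TPM against 319 and 305), whereas HBG2 was the farthest (631 TPM against 351 and 403). This pattern was noticed after the values were seen and was not tested. How often replicate 1 lay nearest to the controls over all genes was not computed. The count therefore cannot be read as particular to these factors.

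LMO2, a bridging subunit of the GATA1 and TAL1 complex, was named after its values were seen. It had 297, 280 and 85.3 TPM in control replicates 1, 2 and 3, and 180, 151 and 154 TPM in the MEN1 shRNA replicates. Control replicate 3 alone lay below the knockdown libraries, and the log2 fold change of -0.25 did not pass the threshold (adjusted p 0.650 in limma). HDAC2, also named after its values were seen, had 198, 276 and 354 TPM in control replicates 1, 2 and 3 and 244 to 262 TPM with the MEN1 shRNA.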
